A study of Arabidopsis thaliana with 6 samples.

Results

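The tonoplast aquaporins TIP1;1, TIP1;2, TIP2;1, TIP2;2, TIP2;3 and TIP4;1 were followed as 6 genes, chosen by their identifiers out of 19955 in the authors' deposited table. RNA had been sequenced from whole seedlings of the Col-0 accession of Arabidopsis thaliana at an age of 7 days. The 3 wild-type (WT) and 3 mir163 mutant samples had been grown untreated at 22 °C with 16 h of light and 8 h of dark, and no source used here gives the allele or the hour of harvest. The table holds 1 FPKM value per genotype (a fragment count corrected for transcript length and for the number of mapped fragments), so no spread between samples can be given and the depth behind each value is unknown. The labels call the samples biological replicates without saying how the seedlings were separated or pooled.

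Aquaporins are membrane channels that let water, and in some members small neutral solutes, pass along a concentration gradient. Tonoplast intrinsic proteins (TIPs) sit in the membrane of the plant vacuole, the compartment that fills most of a mature cell, and let water and solutes move between vacuole and cytosol as cells expand or adjust their osmotic pressure. The TIP1 members, or gamma-TIPs, are the main forms of growing vegetative tissue and also pass urea and hydrogen peroxide. The TIP2 members, or delta-TIPs, pass ammonia as well as water. The first 5 are called below by their synonyms in the RefSeq annotation, GAMMA-TIP1 (TIP1;1), GAMMA-TIP2 (TIP1;2), DELTA-TIP1 (TIP2;1), DELTA-TIP2 (TIP2;2) and DELTA-TIP3 (TIP2;3). TIP3 proteins are the forms of seed storage vacuoles, and TIP4;1 is a form known mainly from roots.

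The 6 genes lie on 4 of the chromosomes and share a compact layout in the RefSeq annotation of the build TAIR10.1. GAMMA-TIP1 (AT2G36830) is on chromosome 2 at positions 15445294 to 15446621, plus strand. GAMMA-TIP2 (AT3G26520) is on chromosome 3 at 9722443 to 9723904, minus strand. DELTA-TIP1 (AT3G16240) is on chromosome 3 at 5505360 to 5507050, plus strand. DELTA-TIP2 (AT4G17340) is on chromosome 4 at 9698940 to 9700472, plus strand, and DELTA-TIP3 (AT5G47450) on chromosome 5 at 19248249 to 19249622, minus strand. TIP4;1 (AT2G25810) is on chromosome 2 at 11012499 to 11014171, plus strand. Each has 1 annotated transcript, of 1169 to 1353 bases, with a coding sequence of 750 to 762 bases.

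DELTA-TIP1 and TIP4;1 have 3 exons and the other members 2. In DELTA-TIP1 the introns are 103 and 399 bases long, and in TIP4;1 they are 108 and 391. The single intron of the other members runs from 91 bases in GAMMA-TIP1 to 205 in DELTA-TIP3. DELTA-TIP2 has the longest 5' untranslated region, at 378 bases, against 156 to 201 in the other members.

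**Figure D1:**
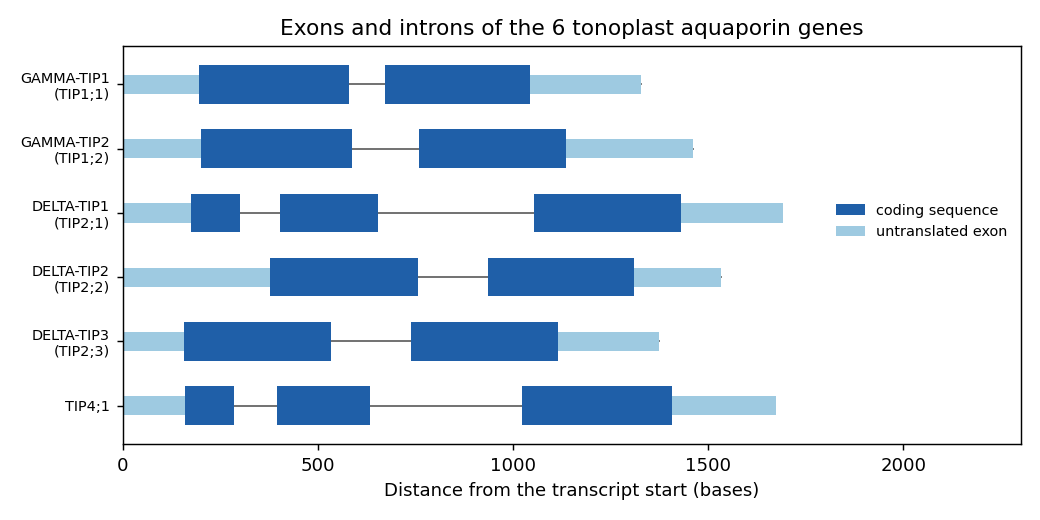
Exon maps of the 6 tonoplast aquaporin genes, with the distance from the transcript start in bases on the horizontal axis. Thick bars are coding sequence, thin bars untranslated exon and lines introns, and the maps of DELTA-TIP1 and TIP4;1 show 3 exons where the others show 2.

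The coding sequences fall into pairs of close relatives. GAMMA-TIP1 and GAMMA-TIP2 were identical in 81.1% of aligned columns, and DELTA-TIP2 and DELTA-TIP3 in 81.5%. DELTA-TIP1 was 71.1% identical to DELTA-TIP2 and 70.8% to DELTA-TIP3. TIP4;1 stood furthest from the rest, at 58.7% to 63.0%. The longest stretches without any difference between 2 members are shown because reads that fall wholly inside them cannot be assigned to 1 gene. The gamma pair shares 29 bases of exon 1, at 15445772 to 15445800 on chromosome 2 for GAMMA-TIP1 and at 9723390 to 9723418 on chromosome 3 for GAMMA-TIP2. The pair DELTA-TIP2 and DELTA-TIP3 shares 26 bases of exon 2, at 9700104 to 9700129 on chromosome 4 and at 19248630 to 19248655 on chromosome 5. Both stretches are coding, and a read longer than 29 bases cannot fall wholly inside either.
GAMMA-TIP1 and GAMMA-TIP2: ggtggtaacatcactctcctccgtggtat
DELTA-TIP2 and DELTA-TIP3: ggaccagctgttgtcagtggtgactt
No source used here says how the authors' counting treated reads that match more than 1 gene.

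Since the mutated gene encodes a microRNA, the member transcripts were searched for the target sequence of that microRNA. Mature miR163 is encoded on chromosome 1 at 24884359 to 24884382, plus strand, and its seed (bases 2 to 8) is in capitals below. PXMT1, a known target, carries in its coding sequence a site with 1 difference from perfect pairing, a missing base. The closest match in each tonoplast aquaporin had 8 or 9 differences. The median over 31346 genes was also 8, and 12 genes (0.0383%) had 4 or fewer. The matches of GAMMA-TIP1 and of DELTA-TIP1, both coding, are printed beside the PXMT1 site. Capitals there mark bases that differ from the perfectly pairing sequence (missing bases are not marked).
miR163: tTGAAGAGgacttggaacttcgat
PXMT1 site: atcgagttccaagtcctcttcaa
GAMMA-TIP1 closest match: acgaagttTtcTtcAtcaa
DELTA-TIP1 closest match: CtgagttcaTCtccActtTa
The PXMT1 site is at 24874307 to 24874329 on chromosome 1, minus strand. The match in GAMMA-TIP1, with 8 differences, is at 15446281 to 15446299 on chromosome 2. The match in DELTA-TIP1, with 9, is at 5505601 to 5505620 on chromosome 3.

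The mutated gene was read first, as a check of the labels. For MIR163 (AT1G66725) the WT value was 20.5 and the mir163 value 0.0726, with a p of 0.180 in the authors' deposited table. PXMT1 (AT1G66700) was at 1.32 in WT and 47.6 in mir163, with a p of 5e-05 in the authors' deposited table. Markers of both root and shoot were present in both genotypes. The 8 root markers, which include the Casparian strip protein CASP1 and the root proline-rich protein PRP3, summed to 248 in WT and 245 in mir163. The 7 shoot markers, genes of the Rubisco small subunit and of light-harvesting proteins, summed to 50191 and 43619. Over all 19264 genes tested (FPKM of at least 1 in a genotype), 0 genes passed an adjusted p of 0.05 in either direction after a Benjamini-Hochberg adjustment of the authors' p-values. The adjusted p was 0.9996 for MIR163 and 0.0876 for PXMT1, so neither passed, and no gene tested had a lower one than PXMT1. At an unadjusted p under 0.05 there were 63 lower and 129 higher.

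The tonoplast aquaporins ranged from some of the most abundant transcripts of the seedling down to levels slightly above the median gene of the table, which stood at 12.2 in both genotypes. Each level below is an FPKM, which is per transcript length. GAMMA-TIP2 had the highest level, 2859 in WT and 2538 in mir163, and ranked 38 and 35 among all genes of the table. DELTA-TIP1 followed at 2252 in WT and 1454 in mir163, ranking 52 and 75. GAMMA-TIP1 was at 1577 and 1405, ranking 78 and 77.

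The other members were far below these. DELTA-TIP2 stood at 310 in WT and 307 in mir163, DELTA-TIP3 at 38.6 and 36.1, and TIP4;1 at 15.9 and 14.8. The highest member exceeded the lowest 179-fold in WT and 172-fold in mir163. The order of the 6 was the same in both genotypes.

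**Figure D2:**
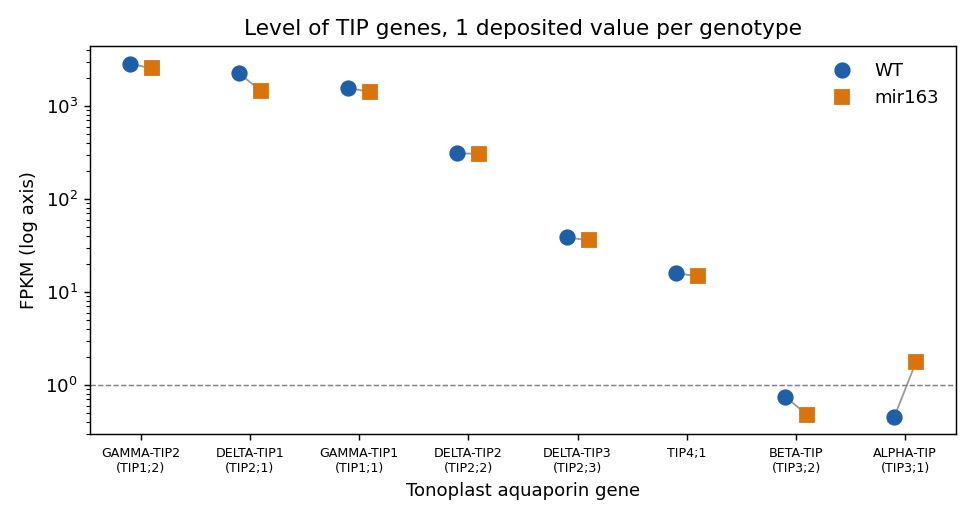
FPKM on a log axis for the TIP genes of the table, with 1 point for WT and 1 for mir163 and a line joining them. The dashed line marks an FPKM of 1. GAMMA-TIP2, DELTA-TIP1 and GAMMA-TIP1 stand above 1000 in both genotypes, DELTA-TIP1 shows the widest gap among the 6 members, and BETA-TIP and ALPHA-TIP lie near or below the dashed line.

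Whether neighbours in that order differ beyond their spread cannot be judged with 1 value per genotype. GAMMA-TIP2 was 1.27 times DELTA-TIP1 in WT and 1.75 times in mir163, while DELTA-TIP1 was 1.43 times GAMMA-TIP1 in WT and 1.03 times in mir163. Below them the steps were wider, with GAMMA-TIP1 at 5.09 times DELTA-TIP2, DELTA-TIP2 at 8.02 times DELTA-TIP3 and DELTA-TIP3 at 2.42 times TIP4;1 in WT. When FPKM was weighted by transcript length, as a stand-in for fragments, GAMMA-TIP1 came before DELTA-TIP1 in mir163.

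Setting mir163 against WT addresses how the transcripts of seedlings differ between the 2 genotypes, and mature miR163 was not measured here. All 6 tonoplast aquaporins had a lower deposited FPKM in mir163, where 48.7% of all genes tested were lower and 51.3% higher. This count went down to 5 when scaled to the sum of nuclear genes, beside 34.8% of all genes lower. It was 3 when scaled to the same sum, beside 25.4%, and 3 under quantile normalization, beside 49.1%. None of the members passed the test, and neither did MIR163 or PXMT1. The adjusted p over all genes tested (Benjamini-Hochberg on the authors' p-values) was 0.9996 for every member, where 0% of genes passed in either direction. At an unadjusted p under 0.05 the members likewise gave 0 lower, beside 0.327% of all genes tested, and 0 in either direction, beside 0.997%.

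DELTA-TIP1 had the largest difference of the 6. Its FPKM of 1454 in mir163 was 0.646 times the 2252 of WT, a log2 ratio of -0.63. The authors' deposited table gives it a p of 0.268, the lowest among the members. A p that low or lower was held by 6.38% of the genes tested, and a ratio that low or lower by 2.82%. Of the summed difference of the 6 members, DELTA-TIP1 made up 61.5% as deposited. Scaled to the same sum it made up 88.5%, and under quantile normalization its difference of -501 was larger than that of the whole sum, as the other 5 members together were 158 higher in mir163.

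Annotated genes overlap DELTA-TIP1. On the opposite strand, PnsB3 (AT3G16250), which the annotation names as a gene of NDH-dependent electron flow, overlaps the last 120 bases of DELTA-TIP1, and the non-coding gene AT3G03265 overlaps 46 bases of its exons. PnsB3 stood at 40.8 in WT and 60.3 in mir163, far below DELTA-TIP1 in both. AT3G03265 was not analysed here. Without a stated strand setting the reads of these overlaps cannot be told apart. No annotated gene overlaps the other members.

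The gamma pair had nearly equal ratios. GAMMA-TIP1 had a ratio of mir163 to WT of 0.891 and GAMMA-TIP2 of 0.888, although GAMMA-TIP2 stood 1.81 times as high as GAMMA-TIP1 in both genotypes. The log2 ratio was -0.17 for each. In the authors' deposited table their p-values were 0.836 and 0.615.

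The other delta-TIPs, DELTA-TIP2 and DELTA-TIP3, had ratios of 0.991 and 0.935, with p-values of 0.974 and 0.812 in the authors' deposited table. DELTA-TIP1 thus stood at 7.27 times DELTA-TIP2 in WT and at 4.74 times in mir163, while DELTA-TIP2 was 8.02 and 8.50 times DELTA-TIP3. TIP4;1 had a ratio of 0.929 and, in the authors' deposited table, a p of 0.779. These ratios between members were not tested, as no spread between samples is known.

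The summed FPKM of the 6 went from 7052 in WT to 5754 in mir163, or 0.816 times. Without DELTA-TIP1 it went from 4800 to 4301, or 0.896 times. Over the 5 scalings the first ratio lay between 0.812 and 0.947. The second was 0.982 when scaled to the same sum and turned to 1.035 under quantile normalization. DELTA-TIP1 held 31.9% of the sum in WT and 25.3% in mir163. GAMMA-TIP2 held 40.5% and 44.1%, and GAMMA-TIP1 held 22.4% and 24.4%. The remaining members together held little of it in either genotype, since the 3 most abundant made up 94.8% in WT and 93.8% in mir163.

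Lower values in mir163 were common among all abundant genes of the table. Of the 135 genes with a mean FPKM of 1000 or more, 101 (74.8%) were lower, with a median log2 ratio of -0.19. In the classes of 10 to 100 and of 100 to 1000 the shares were 49.5% and 49.6%, with medians near 0. GAMMA-TIP1 and GAMMA-TIP2 lay at the middle of the most abundant class, where 54.8% and 54.1% of genes had a ratio as low or lower. For DELTA-TIP1 it was 16 genes, or 11.9%.

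**Figure D3:**
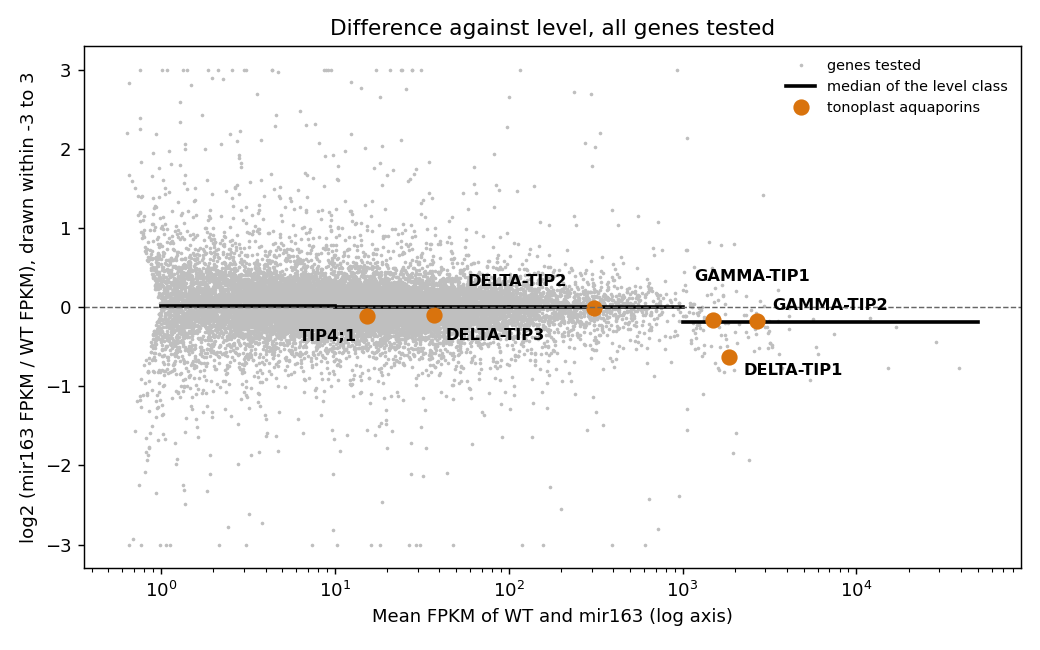
Log2 ratio of mir163 to WT FPKM against mean FPKM (log axis) for the genes tested, without those at 0 in a genotype. Black bars are the medians of 4 level classes and orange points the 6 tonoplast aquaporins. GAMMA-TIP1 and GAMMA-TIP2 lie on the bar of the class from 1000 upward, at -0.19, and DELTA-TIP1 lies below it at -0.63. The sign for GAMMA-TIP1, GAMMA-TIP2, DELTA-TIP2, DELTA-TIP3 and TIP4;1 depends on the scaling.

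The total FPKM was itself lower in mir163, at 1036970 against 1136680 in WT, so the direction of small differences depended on the scaling. Scaling both genotypes to the same sum moved the median log2 change of all genes from 0.0064 to 0.12. It turned the ratios of DELTA-TIP2, DELTA-TIP3 and TIP4;1 to 1.09, 1.02 and 1.02. Relative to that shifted median all 6 members were lower. Quantile normalization, which gives both genotypes the same distribution, turned GAMMA-TIP1, GAMMA-TIP2 and DELTA-TIP2 to 1.01, 1.05 and 1.01. DELTA-TIP1 stayed below 1 under all 5 scalings, at 0.643 to 0.753.

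**Figure D4:**
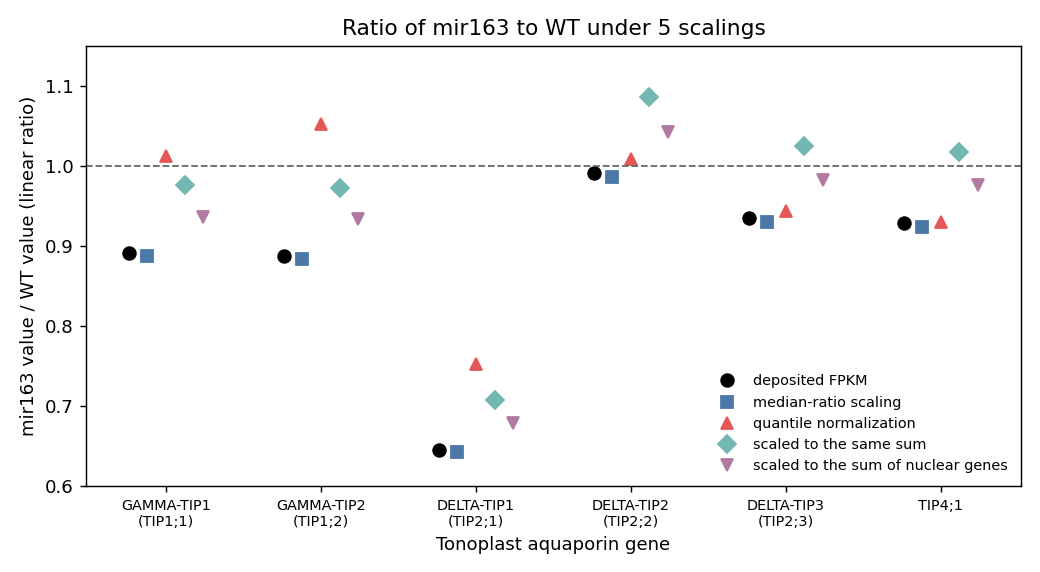
Ratio of the mir163 value to the WT value for each of the 6 members under 5 scalings, on a linear axis that does not start at 0. The dashed line marks equal values. DELTA-TIP1 lies between 0.643 and 0.753 under every scaling, whereas each other member lies above the dashed line under at least 1 of them.

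The seed forms of the family were near the lower limit and are outside the 6 members. ALPHA-TIP (TIP3;1, AT1G73190), of protein storage vacuoles, stood at 0.456 in WT and 1.79 in mir163. In the authors' deposited table its p was 0.0679, and it was tested only through its mir163 value, so the filter fixed its direction. BETA-TIP (TIP3;2, AT1G17810) stood at 0.751 and 0.479 and was too low to be tested. Of 4 seed markers listed 3 were tested. The storage globulin CRA1 stood at 1.43 in WT and 7.71 in mir163. The oil-body protein OLEO2, at 0.861 and 3.60, was likewise tested only through its mir163 value. The 2 markers that passed in WT summed to 2.60 and 10.3. Their part in the value of ALPHA-TIP was not tested. TIP1;3 and TIP5;1 were not analysed here.

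The plasma membrane aquaporins (PIPs), which carry water across the outer membrane of the cell, were mostly lower as deposited. Of 13 tested, 11 had a lower FPKM in mir163, beside 48.7% of all genes tested. The count was also 11 under median-ratio scaling, beside 49.85%, and under quantile normalization, beside 49.1%. Scaled to the sum of nuclear genes 9 were lower, beside 34.8% of all genes tested, and scaled to the same sum 6 were, beside 25.4%. Their summed FPKM was 7473 in WT and 5831 in mir163. PIP2A and PIP1B, the most abundant, were at 1930 and 1439 in WT and at 1366 and 1179 in mir163. The median log2(FPKM + 1) change was -0.13 for the PIPs and -0.13 for the 6 tonoplast members, beside 0.0064 over all genes tested. Under quantile normalization the medians were -0.10 and -0.034. Among the aquaporins of lower level, 3 of 5 NIPs and 1 of 3 SIPs had a lower value, with NIP6;1 at 22.5 and 17.3 and SIP1;1 at 76.2 and 75.9.

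Genes for other proteins of the vacuole had values on both sides of WT, and the difference between these lists and the members was not tested. The share of all genes tested that was lower, to be set beside each count here, itself moved with the scaling. It was 48.7% as deposited, 34.8% when scaled to the sum of nuclear genes and 25.4% when scaled to the same sum. Of 10 genes of the vacuolar proton pumps, which acidify the vacuole and energize its transport, 8 were higher and 2 lower in mir163 as deposited. Between 8 and 10 were higher under the 5 scalings, with all 10 higher when scaled to the same sum. For the pyrophosphatase AVP1 the WT value was 328 and the mir163 value 319. The ATPase subunit VHA-E1 was at 336 and 347. Of 15 other tonoplast transporters 9 were higher and 6 lower, with 9 to 12 higher over the scalings, the most when scaled to the same sum. Among them the malate transporter TDT was at 176 and 106 (p 0.186 in the authors' deposited table), a ratio of 0.602 that is below that of every member, and the calcium exchanger CAX1 at 108 and 117. All 3 vacuolar proteases were higher under every scaling, with AALP at 266 and 290, GAMMA-VPE at 60.9 and 62.6, and CPY, a carboxypeptidase, at 16.1 and 33.5 (p 0.0326 in the authors' deposited table). That p is unadjusted, and 0.67% of all genes tested were higher at an unadjusted p under 0.05. The adjusted p of every gene in these lists was 0.9996.

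Since TIP1 and TIP2 channels pass urea and ammonia, the uptake carriers for these solutes were set beside them. Of 5 tested, 3 had a lower value as deposited, beside 48.7% of all genes tested, and 2 a higher one. Scaled to the same sum 2 were lower, beside 25.4%. The ammonium transporters AMT1;2 and AMT1;1 stood at 92.7 and 49.9 in WT and at 79.5 and 59.6 in mir163.

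**Figure D5:**
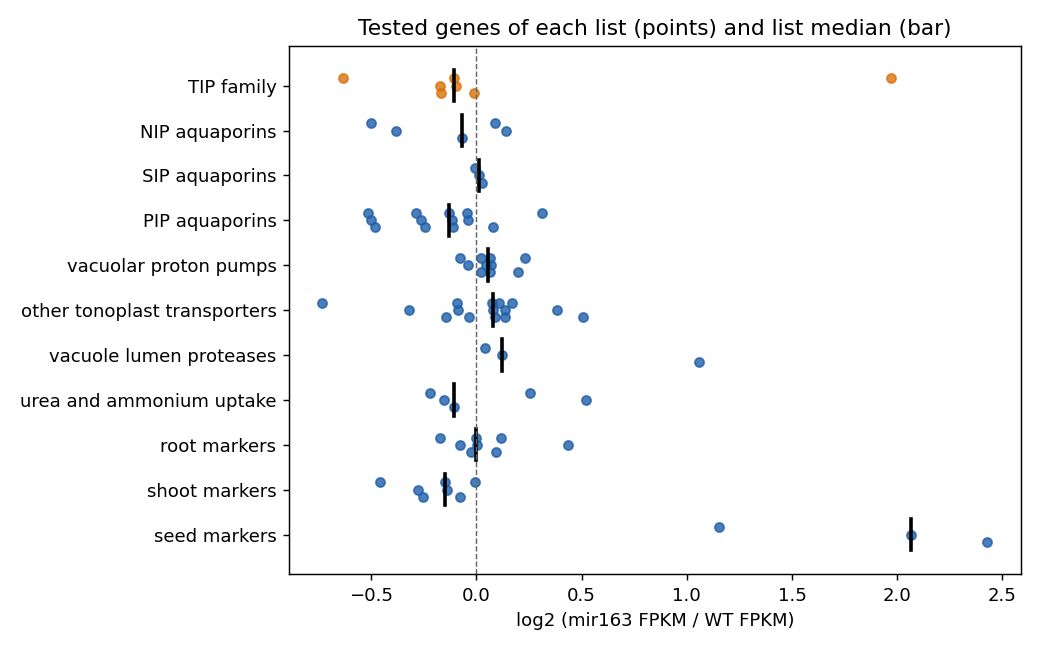
Log2 ratio of mir163 to WT FPKM for each tested gene of 11 lists (points), with the list median as a bar and the TIP family in orange. Most TIP and PIP points lie left of 0 and most proton pump points right of it. Far to the right are ALPHA-TIP at 1.97 and the seed markers OLEO2 at 2.06 and CRA1 at 2.43. ALPHA-TIP and OLEO2 were tested only through their mir163 values. No point passed the adjusted test, and several TIP and PIP signs turn under other scalings.

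Markers of root and shoot are given beside the members. Of the 8 root markers 4 were lower as deposited, beside 48.7% of all genes tested. Median-ratio scaling gave 5 lower, beside 49.85%, and quantile normalization 3, beside 49.1%. Scaling to the sum of nuclear genes gave 2, beside 34.8%, and scaling to the same sum 1, beside 25.4%. The level of CASP1 was 56.6 for WT against 50.2 for mir163, while PRP3 had 84.8 and 84.6. All 7 shoot markers were lower as deposited, but 2 were under quantile normalization, beside 49.1% of all genes tested. Every shoot marker had an FPKM above 1000, the class in which 74.8% of genes were lower, with a median log2 ratio of -0.19. The median log2(FPKM + 1) change of the shoot list was -0.15. The highest root marker stood at 84.8 in WT. RBCS1A was at 18310 and 15342 and LHCB1.3 at 12577 and 11412. The summed shoot level was 0.869 times that of WT and the root level 0.988 times, and their part in the value of DELTA-TIP1 was not tested. In whole seedlings fewer cells of a type and less RNA per cell cannot be told apart.

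The 250 bases before the transcript start are shown for the 3 abundant members, with capitals for matches to the motifs searched. The motifs were sought on both strands from 250 bases before to 50 after the start, and matches may overlap. The evening element AAAATATCT, the CCA1 site AAAAATCT and the G-box CACGTG were in none of the 6 windows and in 2.82%, 7.88% and 7.68% of 27443 promoters. The ABRE core ACGTG, which every G-box contains, was found in GAMMA-TIP1 and DELTA-TIP3 and in 26.7% of all promoters. Site II, TGGGC, was found in GAMMA-TIP2 and DELTA-TIP3 and in 26.0% of all. In GAMMA-TIP1 the match starts at position -62 and in GAMMA-TIP2 at position -103, counted back from the base before the start. The ABRE core match of DELTA-TIP3 lies after the start, at position 41, and so does its site II match, at position 16. DELTA-TIP1, like the other members outside GAMMA-TIP1, GAMMA-TIP2 and DELTA-TIP3, held none of these motifs in its window. Of the 250 bases of DELTA-TIP1, 26.0% were G or C. The share was 35.2% in GAMMA-TIP1, 36.8% in GAMMA-TIP2 and 30% to 31.2% in the other members.
DELTA-TIP1: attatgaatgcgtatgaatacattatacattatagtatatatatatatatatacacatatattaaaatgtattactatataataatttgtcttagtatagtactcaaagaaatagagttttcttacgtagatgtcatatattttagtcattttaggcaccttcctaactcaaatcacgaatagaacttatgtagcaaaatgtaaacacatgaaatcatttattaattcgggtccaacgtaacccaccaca
GAMMA-TIP1: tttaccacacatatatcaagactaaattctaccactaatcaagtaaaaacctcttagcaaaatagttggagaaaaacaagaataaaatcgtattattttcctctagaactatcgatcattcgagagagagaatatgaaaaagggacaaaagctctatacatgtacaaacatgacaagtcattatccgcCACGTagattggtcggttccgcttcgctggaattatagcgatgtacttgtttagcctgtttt
GAMMA-TIP2: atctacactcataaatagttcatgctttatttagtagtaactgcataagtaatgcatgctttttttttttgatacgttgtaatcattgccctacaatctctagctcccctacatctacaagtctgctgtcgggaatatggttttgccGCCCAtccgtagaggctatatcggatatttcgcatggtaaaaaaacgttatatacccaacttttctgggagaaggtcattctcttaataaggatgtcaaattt
These stretches are at 5505110 to 5505359 on chromosome 3, at 15445044 to 15445293 on chromosome 2, and at 9723905 to 9724154 on chromosome 3 (minus strand), all of TAIR10.1.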

How the data were processed

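RNA was sequenced from 3 WT and 3 mir163 seedling samples. Per the file headers, the authors' deposited values are FPKM in 1 column per genotype, beside their log2 ratio and a p-value without adjustment. Recomputed from the FPKM columns, the deposited log2 values were matched within 1.25e-05. TopHat, Cufflinks, bcl2fastq 2.17.1.14 and the build TAIR10 are named, without roles, per the submitters' processing notes. No source used here says how samples were combined or which test gave the p-values. Depth is unknown.

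A Benjamini-Hochberg adjustment was applied to the authors' p-values over the 19264 genes with an FPKM of at least 1 in a genotype, at a threshold of 0.05. Ratios are plain FPKM ratios, and list medians use log2(FPKM + 1). The members and the 11 gene lists were chosen with earlier results of these data known. Named genes are the members, the other TIP genes, MIR163, PXMT1, and in each list the 2 highest and any at an unadjusted p under 0.05. PnsB3 was named for its overlap after values were seen.

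Gene models and sequences were read from RefSeq TAIR10.1, and all 6 members matched by identifier. Synonyms for gene names come from the same annotation. Identity of coding sequences by global alignment replaced the protein comparison first planned. Sites for miR163 were sought by edit distance in 52059 transcripts. Calculations used Python 3.11.15, numpy 2.4.6, pandas 2.3.3, biopython 1.88 and edlib 1.3.9.post1. Only the Benjamini-Hochberg adjustment and the factor of the median-ratio scaling were tested on simulated data. The alternatives were 4 scalings, 2 pseudocounts, 2 filters, transcript-length weighting and the whole TIP family.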

Additional observations from a re-analysis of the deposited data

How the results depend on the processing

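The direction of most members depended on the scaling. Quantile normalization turned the ratios of GAMMA-TIP1, GAMMA-TIP2 and DELTA-TIP2 to 1.012, 1.053 and 1.009. Scaling to the same sum turned DELTA-TIP2, DELTA-TIP3 and TIP4;1 to 1.086, 1.025 and 1.018, and scaling to the sum of nuclear genes turned DELTA-TIP2 to 1.042. The count of members lower in mir163 was 6 as deposited, beside 48.7% of all genes tested, and 3 under quantile normalization, beside 49.1%. It was 3 when scaled to the same sum, beside 25.4%, and 5 when scaled to the sum of nuclear genes, beside 34.8%. The median log2(FPKM + 1) change of the members, -0.13 as deposited, was -0.034, -0.0051 and -0.064 under quantile normalization, the same sum and the sum of nuclear genes. The sum scalings also moved the median of all genes, to 0.12 and 0.071. The same scalings were applied to the sum of the members only after seeing the data. They gave ratios of 0.8125 to 0.9473, and without DELTA-TIP1 the ratio turned to 1.035 under quantile normalization. Pseudocounts of 0.1 and 5 gave -0.14 and -0.13. Without the filter, or with one at an FPKM of 5, 0 genes were called and the members' adjusted p was 0.9996. Weighting by transcript length exchanged GAMMA-TIP1 and DELTA-TIP1 in mir163. No paired analysis was possible because the table gives 1 value per genotype, and leaving out each replicate was not run for the same reason.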
